A study of Homo sapiens with 12 samples.

Results

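The 65 human genes named MRPL and MRPS encode proteins of the mitochondrial ribosome, and their splicing was followed in cells depleted of the splicing regulator SFSWAP. Splicing events were taken when the gene symbol was MRPL or MRPS followed by a number and at most 1 letter of A, B or C, and when the libraries of the event averaged 10 reads or more. Of the 65 genes, 39 were MRPL genes, named for the large subunit, and 26 were MRPS genes, named for the small subunit. Without UPF1 depletion, 466 of 97177 skipped exon events with that many reads were in these genes, and with UPF1 depletion 440 of 93272. For retained introns the numbers were 41 of 8017 and 34 of 7118. The skipped exon events covered 350 exons of 63 genes without UPF1 depletion and 336 exons of 61 genes with it, since an exon can be listed several times with other neighbours or other ends. The retained introns lay in 23 and 18 genes.

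All 12 libraries came from HEK293A-TOA cells, a derivative of the human embryonic kidney line HEK293A, and were prepared from polyadenylated RNA. The 4 groups of 3 libraries were transfected with non-targeting siRNA (siNT), with 40 nM siRNA against SFSWAP (siSFSWAP), with siNT and 30 nM siRNA against UPF1 (siNT/siUPF1), or with siRNAs against both (siSFSWAP/siUPF1). SFSWAP knockdown lasted 5 days. The study's methods give a shorter time for knockdowns of other genes, so the length of UPF1 depletion is less sure. Every group, controls included, was treated with 1 μM thiamet G (TG) for 6 hr, so no level below is that of untreated cells. Thiamet G inhibits O-GlcNAcase, the enzyme that removes the sugar O-GlcNAc from proteins, so that O-GlcNAc builds up. The labels call the 3 libraries of a group biological replicates, which in this study means cells passaged on separate occasions.

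Between 25938092 and 40637076 reads per library fell on all listed skipped exon events, and the library with the fewest was siSFSWAP/siUPF1. Reads at the SFSWAP gene, given as RPM (reads per 1000000 reads at all skipped exon events), were 114 to 127 in siNT and 37.4 to 59.2 in siSFSWAP (25 events), and 66.2 to 80.8 in siNT/siUPF1 and 20.3 to 39.95 in siSFSWAP/siUPF1 (13 events). At 15 UPF1 events shared by both tables, siNT held 249 to 354 RPM and siNT/siUPF1 63.4 to 112. VIM, a mesenchymal gene that these cells express, had 285 to 444 RPM, the kidney gene PAX2 at most 0.135 and the fibroblast gene COL1A1 at most 0.232. The leukocyte, liver, endothelial and red cell genes PTPRC, ALB, CDH5 and HBB had no listed skipped exon event, but neither had KRT18, NEFL and NEFM, which HEK293 cells are known to express, so an unlisted gene shows nothing about the cells. The libraries are named here by their place in the tables, the first, the second or the third, since the tables carry no replicate numbers.

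The mitochondrial ribosome translates the few membrane proteins that the mitochondrial genome encodes, all of them subunits of oxidative phosphorylation. All of its proteins are encoded in the nucleus, spliced there, translated in the cytosol and imported, and many have a bacterial counterpart while others exist only in mitochondria. SFSWAP is a homologue of the Drosophila splicing regulator suppressor of white-apricot. UPF1 is the helicase at the centre of nonsense-mediated decay, which removes mRNAs with a premature stop codon, so its depletion lets such mRNAs be seen. An exon of a length that is no multiple of 3 shifts the reading frame when it is left out.

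A set of 6 coding exons called without UPF1 depletion is shown first, because most results below return to them. Exons are in capitals, with the last 20 bases of the intron before and the first 6 bases of the intron after in lower case, all from GRCh38 and read 5′ to 3′ along the gene. MRPS18C exon 3 (chr4:83458346-83458429, + strand, 84 nt) and MRPL22 exon 3 (chr5:154950821-154950938, + strand, 118 nt) lost inclusion. MRPS18A exon 5 (chr6:43675202-43675271, - strand, 70 nt), MRPL53 exon 2 (chr2:74472358-74472470, - strand, 113 nt), MRPL2 exon 4 (chr6:43056081-43056196, - strand, 116 nt) and MRPL38 exon 6 (chr17:75900982-75901027, - strand, 46 nt) gained it. All 6 are coding exons of the MANE transcript, the single reference transcript chosen for each gene, and all are bounded by GT-AG introns. Of the 20 bases before the exon, between 10 (MRPL38) and 17 (MRPS18C) were pyrimidines.
MRPS18C exon 3: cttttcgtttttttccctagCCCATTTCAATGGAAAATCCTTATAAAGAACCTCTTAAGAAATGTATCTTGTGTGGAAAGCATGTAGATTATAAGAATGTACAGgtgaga
MRPL22 exon 3: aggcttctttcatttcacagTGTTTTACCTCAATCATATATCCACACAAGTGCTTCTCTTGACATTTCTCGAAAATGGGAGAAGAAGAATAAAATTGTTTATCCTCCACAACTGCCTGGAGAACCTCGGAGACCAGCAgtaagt
MRPS18A exon 5: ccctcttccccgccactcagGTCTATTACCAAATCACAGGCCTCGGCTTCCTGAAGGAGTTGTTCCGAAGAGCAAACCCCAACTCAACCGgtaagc
MRPL53 exon 2: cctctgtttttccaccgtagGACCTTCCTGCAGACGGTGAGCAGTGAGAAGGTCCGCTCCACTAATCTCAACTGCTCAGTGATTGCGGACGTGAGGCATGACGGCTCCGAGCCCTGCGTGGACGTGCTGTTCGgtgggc
MRPL2 exon 4: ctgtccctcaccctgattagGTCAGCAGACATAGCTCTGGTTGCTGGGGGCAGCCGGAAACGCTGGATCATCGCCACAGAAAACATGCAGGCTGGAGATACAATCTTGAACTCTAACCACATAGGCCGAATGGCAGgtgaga
MRPL38 exon 6: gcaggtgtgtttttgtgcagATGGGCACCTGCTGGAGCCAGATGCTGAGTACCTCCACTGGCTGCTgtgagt

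The first comparison, siSFSWAP against siNT, asks which exons of these genes depend on SFSWAP when O-GlcNAc is high. The inclusion level of an exon sets reads that support inclusion against reads that join its listed neighbours directly. Each kind of read is divided by the length over which such reads can fall, and the level is the inclusion part of their sum. Forms of an exon with other ends can share reads, so their levels are not shares of all transcripts of the gene. Inclusion of exons of MRPS18A, MRPL53, MRPL2, MRPL38, MRPL9, MRPL48, MRPS15 and MRPS31 rose after SFSWAP knockdown, and that of exons of MRPS18C, MRPL22, MRPL17, MRPL52 and MRPL4 fell. Of the 466 events, 215 (175 exons of 46 genes) had 10 reads or more of each form in all and were tested, while 200 had too few skipping reads and 51 too few inclusion reads. By the quasi-binomial test, 24 of 215 events passed an adjusted p of 0.05 (11.2%, against 11.0% of all 33839 events tested), so the share of events that changed in these genes was near that of all genes. The 24 events lay at 22 exons of 13 genes, 16 events with higher inclusion (7.21% of all events were called higher) and 8 with lower inclusion (3.84% of all events). MRPL genes held 16 of the 133 tested and MRPS genes 8 of 82. At 65 of the 215 events (30.2%) the 3 libraries of one group all lay above or all below the 3 of the other, against 25.9% of all events tested. Among them were 22 of the 24 called events, and over all genes 3211 of the 3738 called events had such groups. The median log2 odds ratio of inclusion, siSFSWAP over siNT, was 0.32 over the 215 events and 0.258 over all events.

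**Figure D1:**
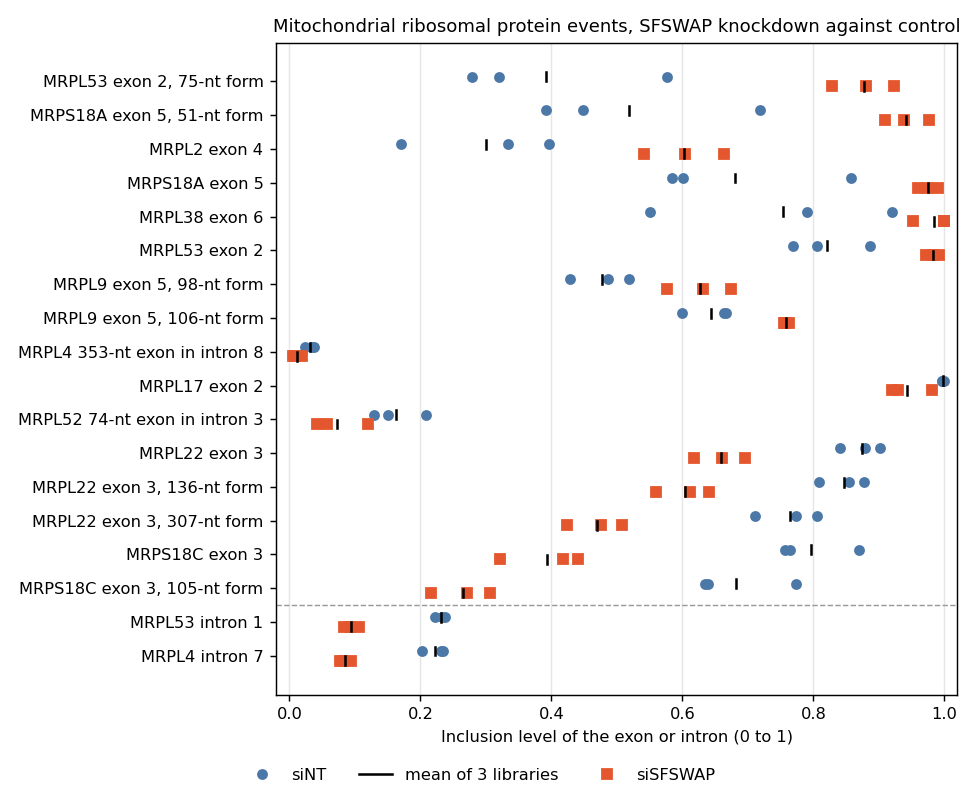
Inclusion level (0 to 1) in each siNT and siSFSWAP library at the called skipped exons named for the SFSWAP comparison without UPF1 depletion; points are single libraries, black bars are group means, and the 2 retained introns stand below the dashed line. Both MRPS18A forms sit between 0.392 and 0.857 in siNT and above 0.9 in siSFSWAP, and both MRPS18C forms lie lower in all 3 siSFSWAP libraries.

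MRPS18A and MRPS18C, members of a group of human paralogues of the bacterial small-subunit protein S18, moved in opposite directions. MRPS18C encodes a small-subunit paralogue, whereas the protein of MRPS18A sits in the large subunit of the human mitochondrial ribosome. MRPS18C exon 3 was included at 0.764, 0.757 and 0.869 in the siNT libraries and at 0.418, 0.440 and 0.321 in the siSFSWAP libraries. The groups lay far apart, with means of 0.797 ± 0.0626 and 0.393 ± 0.0633 (SD, n = 3), a log2 odds ratio of -2.67 ± 0.31 (SE) and an adjusted p of 2.88e-18 by the quasi-binomial test. Skipping reads rose from 28, 43 and 25 to 122, 77 and 128. The 84 nt of this exon keep the frame, so that its loss shortens the open reading frame from 142 to 114 codons. A longer form with 105 nt, which begins 21 bases earlier and carries a stop codon in frame, was included at 0.682 ± 0.0785 in siNT and 0.265 ± 0.0451 in siSFSWAP (adjusted p = 4.72e-15). It shares its skipping reads and its 3′ end with the 84-nt form, so reads at that end can count for both. Its level is thus not the share of transcripts that carry the stop codon, and it is no separate evidence.

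MRPS18A exon 5 was the gain with the lowest p among these genes. It was included at 0.601, 0.857 and 0.584 in the siNT libraries and at 0.990, 0.960 and 0.973 after knockdown, so that skipping, at 110, 47 and 139 reads in the controls, was down to 3, 10 and 8 reads. The means were 0.681 ± 0.153 and 0.974 ± 0.0149 (SD, n = 3), the log2 odds ratio 4.16 ± 0.53 (SE) and the adjusted p 7.48e-26. The siNT libraries differed among themselves more than the siSFSWAP libraries, yet none reached the lowest siSFSWAP level. The exon of 70 nt is no multiple of 3, and the transcript without it reads 127 codons to its stop against 196 with it. A 51-nt form with the same 3′ end of the exon was included at 0.519 ± 0.174 in siNT and 0.942 ± 0.0327 in siSFSWAP (adjusted p = 2.38e-20) and shares the skipping reads.

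MRPL22 encodes the counterpart of the bacterial protein that lines the exit tunnel of the large subunit. Its exon 3 was included at 0.902, 0.840 and 0.879 in siNT and at 0.696, 0.661 and 0.618 in siSFSWAP, with skipping reads of 20, 39 and 36 against 85, 78 and 83. All 3 siSFSWAP libraries lay below all siNT libraries, with means of 0.874 ± 0.0313 and 0.658 ± 0.0391 (SD, n = 3), a log2 odds ratio of -1.81 ± 0.30 (SE) and an adjusted p of 1.45e-08. The transcript without exon 3 reads 34 codons to its stop, against 206 codons with it. Forms of 136 and 307 nt with the same end were called too, at 0.847 ± 0.035 and 0.763 ± 0.0483 in siNT and 0.604 ± 0.0408 and 0.470 ± 0.0422 in siSFSWAP. The 3 forms are set against the same skipping reads.

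MRPL53 encodes a large-subunit protein with no bacterial counterpart, and both its exon 2 and the intron before it moved. Exon 2 was included at 0.806, 0.887 and 0.769 in siNT and at 0.972, 0.992 and 0.983 in siSFSWAP. These levels did not overlap, at 0.821 ± 0.06 and 0.983 ± 0.0102 (SD, n = 3), with a log2 odds ratio of 3.49 ± 0.91 (SE) and an adjusted p of 1.75e-05. The exon of 113 nt is no multiple of 3, and the transcript without it reads 70 codons to its stop against 112 with it. A 75-nt form, which ends at a GC splice donor inside the exon, had 0.392 ± 0.162 in siNT and 0.877 ± 0.0472 in siSFSWAP (adjusted p = 0.00116). It averaged 39.0 reads per library, against 264.2 for the 113-nt form. Both are set against the same skipping reads, so the 75-nt form is no separate evidence.

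MRPL2, the counterpart of a bacterial protein next to the peptidyl transferase centre, had higher inclusion of exon 4 measured between exons 2 and 7, a junction that leaves out the exons in between. The siNT libraries had 0.171, 0.334 and 0.397 and the siSFSWAP libraries 0.604, 0.541 and 0.663, with 150, 92 and 91 reads joining exon 2 to exon 7 in siNT and 22, 25 and 19 in siSFSWAP. The means were 0.30 ± 0.117 and 0.603 ± 0.0608 (SD, n = 3), with a log2 odds ratio of 1.88 ± 0.38 (SE) and an adjusted p of 7.72e-06. The direct junction from exon 2 to exon 7 was thus less used in every siSFSWAP library, and neither form with exon 4 alone nor the form without it keeps the full frame, at 92 and 103 codons against 305.

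MRPL38, a large-subunit protein found in mitochondria only, had few reads, and its exon 6 is described by them. Between exons 4 and 7, the siNT libraries held 9, 4 and 20 skipping reads beside 36 to 67 inclusion reads, and the siSFSWAP libraries 0, 3 and 0 beside 70 to 99. Exon 6 inclusion was 0.791, 0.920 and 0.551 in siNT and 1.0, 0.952 and 1.0 in siSFSWAP (adjusted p = 0.00127). The call was lost when the third siNT library, which held the lowest level, was left out. Exon 5 of the same gene shares those skipping reads, and between exons 4 and 7 it rose from 0.529 ± 0.233 to 0.961 ± 0.0681 (SD, n = 3; adjusted p = 0.000387), a call kept when any 1 library was left out. Between exons 4 and 6, exon 5 had 5, 4 and 7 skipping reads in siNT and 0 in each siSFSWAP library (adjusted p = 0.0113), and this call was lost without the third siNT or the first siSFSWAP library.

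MRPL9, a large-subunit protein with a bacterial counterpart, had a smaller gain on many more reads. Its exon 5 was included at 0.692, 0.746 and 0.754 in siNT and at 0.841, 0.818 and 0.828 in siSFSWAP, with means of 0.731 ± 0.0338 and 0.829 ± 0.0119 (SD, n = 3) and an adjusted p of 3.47e-04. Forms of 106 and 98 nt rose by a similar amount, from 0.643 ± 0.0377 to 0.758 ± 0.00415 (adjusted p = 0.00109) and from 0.477 ± 0.0458 to 0.628 ± 0.0493 (adjusted p = 0.000686). All 3 use 1 set of skipping reads, 144 to 165 in siNT and 85 to 106 in siSFSWAP.

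Fewer reads or smaller steps stood behind the other calls. MRPL17 exon 2 (69 nt, in frame) was skipped by 0, 1 and 1 reads in siNT and by 19, 4 and 15 in siSFSWAP, for levels of 0.997 ± 0.00225 and 0.944 ± 0.0329 (SD, n = 3; adjusted p = 0.000426). An exon of 74 nt within intron 3 of MRPL52, with a stop codon in frame, was included at 0.129, 0.150 and 0.208 in siNT and at 0.0417, 0.0572 and 0.120 in siSFSWAP (adjusted p = 0.0169). A 353-nt exon within intron 8 of MRPL4, the counterpart of another exit-tunnel protein, was at 0.0320 ± 0.00722 in siNT and 0.0111 ± 0.00756 in siSFSWAP (adjusted p = 0.0295). The MRPL52 call was lost without the third siNT, the first siSFSWAP or the second siSFSWAP library, and the MRPL4 call without any of these or without the first siNT library. The remaining calls are named here after their values were seen. MRPL48 exon 3 (38 nt) rose from 0.883 ± 0.019 to 0.969 ± 0.0182 (adjusted p = 0.00177), and its libraries did not overlap. MRPS15 exon 3, in a small-subunit protein with a bacterial counterpart, was called between exons 2 and 4 at 0.841, 0.936 and 0.799 in siNT and 0.913, 0.938 and 0.960 in siSFSWAP (adjusted p = 0.0122), where the groups overlapped. The same exon was called between exons 2 and 6, at 0.708 ± 0.0611 and 0.882 ± 0.0646 (adjusted p = 0.0303), and as a form of 71 nt. All 3 MRPS15 calls were lost without the first siNT, the third siNT or the third siSFSWAP library, the one between exons 2 and 6 also without the first siSFSWAP library and the 71-nt form also without the second. A 197-nt exon within intron 5 of MRPS31 was at 0.00711 ± 0.00472 in siNT, on 3, 1 and 2 inclusion reads, and at 0.0410 ± 0.00469 in siSFSWAP, on 9, 9 and 6 (adjusted p = 0.0486), and this call was lost whichever of the 6 libraries was left out. Of the 24 calls, 16 were kept when any 1 library was left out.

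Where the exons lie was described with each exon counted once. Of the 175 exons tested, 47 were MANE exons, 63 overlapped one with another end, 64 lay within a MANE intron and 1 lay outside. Of the 22 exons called, 11 were MANE exons (8 higher, 3 lower), 8 were other forms of MANE exons (5 higher, 3 lower) and 3 were intronic (1 higher, 2 lower). Exons of a length that is no multiple of 3 made up 122 of the 175 tested and 16 of the 22 called. In siNT, 68 of the 175 exons were included above 0.9, 62 below 0.1 and 45 in between.

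The count of calls depended on how the spread between libraries was modelled. In this comparison the quasi-binomial fit gave every exon 1 common dispersion, 2.64. An exon with unequal siNT libraries was thus not tested against its own spread. The SFSWAP comparison of exons in UPF1-depleted cells likewise had 1 common dispersion, 2.96. limma on the log2 odds of each library, which does not weight by reads, called 10 of the 215 events. These were both forms of MRPS18A and of MRPL53, MRPL17 exon 2, both events of MRPL38 exon 5 and 3 events of MRPS25, but not MRPS18C exon 3 (adjusted p = 0.0619), MRPL22 exon 3 (adjusted p = 0.127), MRPL2 exon 4 (adjusted p = 0.163) or MRPL38 exon 6 (adjusted p = 0.0681). With a dispersion of its own for each event, 0 were called. In the quasi-binomial test 53 of the 215 had an unadjusted p under 0.05, against 8067 of all 33839 events. The share that limma called over all events is not given here.

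Retained introns of these genes changed at 2 loci, and both fell. MRPL4 intron 7 (chr19:10258523-10258608, + strand, 86 bp) and MRPL53 intron 1 (chr2:74472471-74472568, - strand, 98 bp) are shown with the intron in capitals, the last 6 bases of the exon before and the first 20 of the exon after in lower case. MRPL53 intron 1 ends where exon 2, printed above, begins.
MRPL4 intron 7: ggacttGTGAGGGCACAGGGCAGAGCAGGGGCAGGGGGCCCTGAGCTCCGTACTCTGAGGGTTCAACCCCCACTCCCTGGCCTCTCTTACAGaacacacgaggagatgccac
MRPL53 intron 1: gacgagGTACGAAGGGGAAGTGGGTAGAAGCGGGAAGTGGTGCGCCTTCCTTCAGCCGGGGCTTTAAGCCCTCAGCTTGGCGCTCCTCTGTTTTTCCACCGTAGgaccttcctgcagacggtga

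MRPL4 intron 7 was retained at 0.234, 0.203 and 0.231 in siNT and at 0.0773, 0.0942 and 0.0819 in siSFSWAP. The means were 0.223 ± 0.0173 and 0.0845 ± 0.00878 (SD, n = 3), with a log2 odds ratio of -1.67 ± 0.27 (SE) and an adjusted p of 1.04e-04. MRPL53 intron 1 was retained at 0.223, 0.233 and 0.238 in siNT and at 0.0840, 0.0934 and 0.107 in siSFSWAP (log2 odds ratio -1.53 ± 0.32, adjusted p = 0.0021). In MRPL53, retention of intron 1 thus fell in the same libraries in which exon 2 was skipped less. These 2 of 26 introns tested (7.69%) compare with 9.92% of all 5845 introns called, 8.78% of all introns called lower, and no member was called higher. Retention did not overlap between groups at 5 of 26 introns (19.2%), against 24.6% of all introns. The median log2 odds ratio was -0.0118 over the 26 and -0.25 over all introns tested. The 26 were 73 to 1812 bp long with a median of 114.5 bp, and 17 of them were retained below 0.1 in siNT. limma on the log2 odds gave adjusted p of 0.0869 and 0.0946 for the pair and called 0 of 26.

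The same contrast in UPF1-depleted cells, siSFSWAP/siUPF1 against siNT/siUPF1, uses 6 other libraries and so repeats the SFSWAP comparison. Exons of MRPS18C, MRPS18A, MRPL2, MRPL38, MRPL48 and MRPS15 changed in both, in the same direction. Of the 440 events, 212 (176 exons of 50 genes) could be tested, with too few skipping reads for 178 and too few inclusion reads for 50. There were 20 calls in 10 genes (9.43%, against 7.25% of all 34006 events), 14 with higher inclusion (3.91% of all events) and 6 with lower (3.34% of all events). Groups did not overlap at 55 of the 212 events (25.9%, against 21.6% of all events). All 20 calls were among them, and over all genes 2014 of the 2465 called events had such groups. The median log2 odds ratio was 0.0428 over the members and 0.0698 over all events. Of the 24 events called without UPF1 depletion, 19 were tested here, 17 had the same sign and 9 were called (37.5% of the 24, and 45.0% of the 20). These shares were not computed over all genes, so they do not set the members apart. Without the second siNT/siUPF1 library the count of 20 was 9, without the first siSFSWAP/siUPF1 library it was 11, and limma called 0 (37 at an unadjusted p under 0.05).

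**Figure D2:**
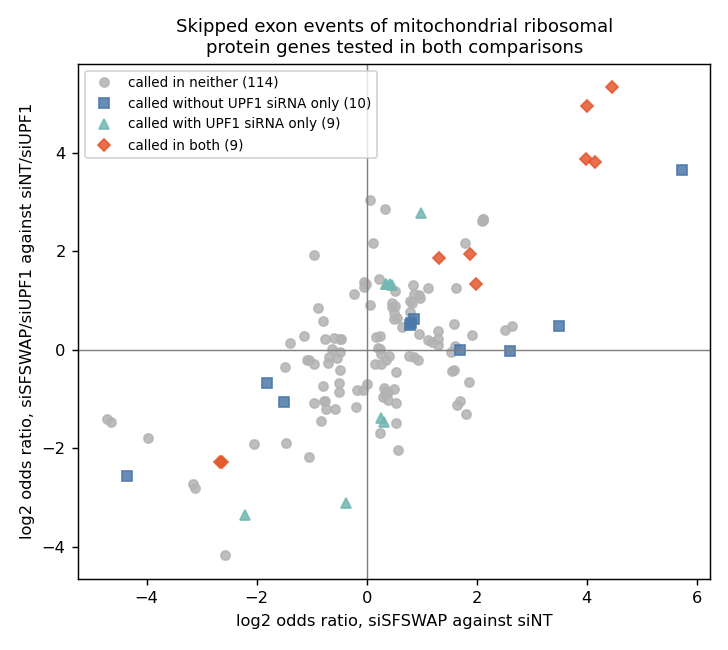
Log2 odds ratio of inclusion after SFSWAP knockdown without (x axis) and with (y axis) UPF1 depletion, for the 142 skipped exon events tested in both; colours mark in which comparison an event was called. The 9 events called in both lie on the same side of 0 on each axis; 10 were called on the x axis only, 9 on the y axis only and 114 in neither.

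MRPS18C exon 3 was included at 0.779, 0.832 and 0.803 in siNT/siUPF1 and at 0.379, 0.399 and 0.595 in siSFSWAP/siUPF1. The log2 odds ratio of -2.28 ± 0.32 (SE; adjusted p = 2.71e-11) differed from that without UPF1 depletion by 0.38, with a 95% interval of -0.45 to 1.22. MRPS18A exon 5 was at 0.675, 0.631 and 0.851 against 0.981, 0.961 and 0.979, a log2 odds ratio of 3.82 ± 0.59 (adjusted p = 3.04e-16), and the difference between backgrounds was -0.34 (-1.97 to 1.28). In both genes the depleted libraries lay on one side of every control library again, and the levels of siNT/siUPF1 overlapped those of siNT.

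MRPL2 exon 4 was at 0.186, 0.324 and 0.322 in siNT/siUPF1 and 0.548, 0.740 and 0.515 in siSFSWAP/siUPF1 (log2 odds ratio 1.95 ± 0.44, adjusted p = 1.53e-04), and the backgrounds differed by 0.07 (-1.03 to 1.16). For MRPL38 exon 6 the skipping reads were 7, 33 and 4 against 0, 1 and 0 (adjusted p = 0.00163). This call was lost without the second siNT/siUPF1 library, which held 33 of those reads. MRPL48 exon 3 was at 0.906, 0.796 and 0.888 against 0.936, 0.951 and 0.930 (adjusted p = 0.0371), a call that was lost without the second siNT/siUPF1 library or any siSFSWAP/siUPF1 library. MRPS15 exon 3 (chr1:36462088-36462163, - strand, 76 nt), whose groups overlapped without UPF1 depletion, no longer overlapped: the levels were 0.863, 0.754 and 0.850 against 0.911, 0.933 and 0.969 (log2 odds ratio 1.86 ± 0.48, adjusted p = 5.30e-04). This call was lost without the second siNT/siUPF1 or the third siSFSWAP/siUPF1 library. Between exons 2 and 6 the same exon was at 0.737 ± 0.0836 in siNT/siUPF1 and 0.717 ± 0.113 in siSFSWAP/siUPF1 (adjusted p = 0.999), so that the call made there without UPF1 depletion was not repeated. The exon is shown because it is the MRPS exon called in both comparisons beside those of the MRPS18 genes, and a transcript without it reads 63 codons against 257.
MRPS15 exon 3: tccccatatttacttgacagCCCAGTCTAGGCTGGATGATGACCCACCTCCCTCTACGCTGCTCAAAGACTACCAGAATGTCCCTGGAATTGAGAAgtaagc

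Some exons called in only 1 of the comparisons had a smaller change in the other, which is not a test of a difference. MRPL22 exon 3 was at 0.856, 0.687 and 0.771 in siNT/siUPF1 and 0.720, 0.598 and 0.733 in siSFSWAP/siUPF1, overlapping groups (log2 odds ratio -0.68 ± 0.28, adjusted p = 0.12). MRPL53 exon 2 was at 0.929, 0.934 and 0.970 against 0.988, 0.970 and 0.932 (adjusted p = 0.824), and its control libraries were already above all siNT libraries. MRPL17 exon 2 was at 0.992 ± 0.0077 against 0.943 ± 0.0246 (adjusted p = 0.104), and MRPL4 intron 7 at 0.199 ± 0.0725 against 0.109 ± 0.00815 (adjusted p = 0.135). The test of the difference between backgrounds called 0 of 212 skipped exon events (0 by limma), against 0.0796% of all 38928 events. An unadjusted p under 0.05 was held by 9 of the 212 and by 1224 of all 38928. For MRPL22 exon 3 that difference was 1.13 ± 0.39 on the log2 odds scale with an adjusted p of 0.928 (Wald test of the quasi-binomial fit moderated by limma), and for MRPL53 exon 2 it was -3.0 ± 1.17 with an adjusted p of 0.999. For retained introns 0 of 11 were called (0 by limma, 0.0291% of all introns), and 0 had an unadjusted p under 0.05, against 158 of all 3435.

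**Figure D3:**
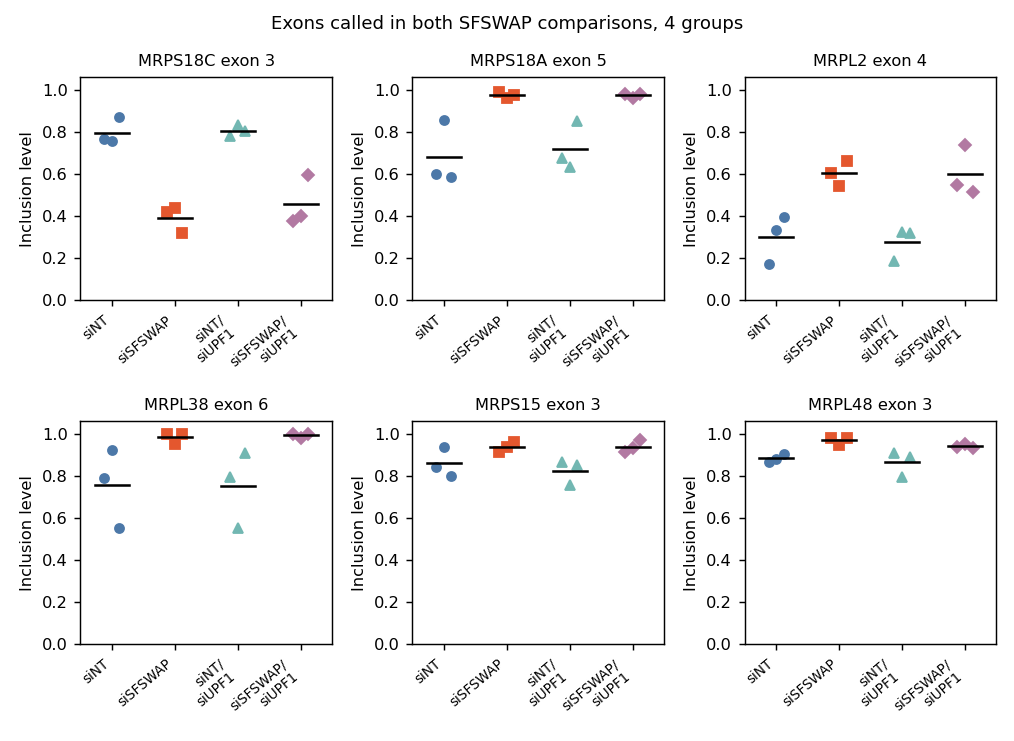
Inclusion level (0 to 1) in all 12 libraries for exons called in both SFSWAP comparisons; points are single libraries grouped as siNT, siSFSWAP, siNT/siUPF1 and siSFSWAP/siUPF1, and bars are group means. MRPS18C exon 3 has means of 0.797, 0.393, 0.805 and 0.458, and MRPS18A exon 5 means of 0.681, 0.974, 0.719 and 0.974.

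Further calls in UPF1-depleted cells were of exons in MRPS15, MRPL48 and MRPL43. MRPS15 exon 5 was called in 5 overlapping forms set against 1 set of skipping reads (41, 49 and 40 in siNT/siUPF1, 16, 12 and 12 in siSFSWAP/siUPF1). Of these the longest form was at 0.714, 0.709 and 0.685 against 0.816, 0.870 and 0.883 (adjusted p = 0.0311) and the 89-nt form at 0.830 ± 0.0109 against 0.925 ± 0.0195 (adjusted p = 0.0315). Both calls were lost when any library but the third siNT/siUPF1 library was left out, and the calls of the other 3 forms were lost without the second siNT/siUPF1 library or any siSFSWAP/siUPF1 library. MRPL48 exon 6 (103 nt), named after its values were seen, was at 0.889, 0.897 and 0.955 against 0.995, 0.979 and 0.986, and was lost without the first siSFSWAP/siUPF1 library. A 305-nt form overlapping exon 3 of MRPL43, likewise named afterwards, had 15, 7 and 8 skipping reads against 0, 0 and 1, and was lost without the first siNT/siUPF1, the first siSFSWAP/siUPF1 or the second siSFSWAP/siUPF1 library. Of the 20 calls, 6 were kept when any 1 library was left out, those of MRPS18C, MRPS18A, MRPL2 and an exon of MRPL1 described next. No retained intron of these genes was called in this background (0 of 19 and 0 by limma, against 3.39% of all introns). An unadjusted p under 0.05 was held by 3 of the 19 and by 775 of all 5105 introns.

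The 4 intronic exons called in UPF1-depleted cells all fell after SFSWAP knockdown, and each carries a stop codon in the frame of the exon before it. They lie within intron 4 of MRPL48, intron 8 of MRPS27, intron 2 of MRPL42 and intron 6 of MRPL1. The exons of MRPS27 (chr5:72227050-72227275, - strand, 226 nt) and MRPL1 (chr4:77906946-77907210, + strand, 265 nt) are printed in lower case with the first in-frame stop codon in capitals, which begins at base 102 of the former and base 36 of the latter, so that a reader can see where translation of such a transcript would end.
MRPS27 exon in intron 8: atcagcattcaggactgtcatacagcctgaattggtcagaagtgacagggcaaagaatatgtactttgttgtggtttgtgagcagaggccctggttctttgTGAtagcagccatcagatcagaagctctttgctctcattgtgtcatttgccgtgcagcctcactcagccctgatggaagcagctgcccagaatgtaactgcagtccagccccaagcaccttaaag
MRPL1 exon in intron 6: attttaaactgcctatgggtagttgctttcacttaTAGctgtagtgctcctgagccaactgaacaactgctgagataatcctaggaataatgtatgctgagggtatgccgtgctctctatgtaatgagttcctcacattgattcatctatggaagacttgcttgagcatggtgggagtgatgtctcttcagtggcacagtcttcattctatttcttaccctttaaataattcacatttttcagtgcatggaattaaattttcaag

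These exons are rare in every group. The MRPL1 exon, in the gene for the counterpart of the protein of the L1 stalk, was at 0.0513, 0.0900 and 0.0392 in siNT/siUPF1 and at 0.00141, 0.0200 and 0.00251 in siSFSWAP/siUPF1, on 36, 40 and 15 against 1, 9 and 1 inclusion reads. Its log2 odds ratio was -3.10 ± 0.80 (SE; adjusted p = 7.34e-05), and the call was kept when any 1 library was left out. The MRPL48 exon was at 0.0370, 0.0480 and 0.0208 against 0.0105, 0.0125 and 0.0160 (adjusted p = 0.00103). The MRPS27 exon, in the gene of a small-subunit protein with pentatricopeptide repeats, was at 0.0653, 0.203 and 0.0578 against 0.0320, 0.0560 and 0.0409 (adjusted p = 0.00519). The MRPL42 exon was at 0.0472, 0.205 and 0.0612 against 0.00777, 0.0219 and 0.00493 (adjusted p = 0.00178). The second siNT/siUPF1 library was the highest of its group at all 4 exons, and without it the calls at MRPL48, MRPS27 and MRPL42 were lost. The MRPS27 call was lost also without the first or the third siSFSWAP/siUPF1 library.

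**Figure D4:**
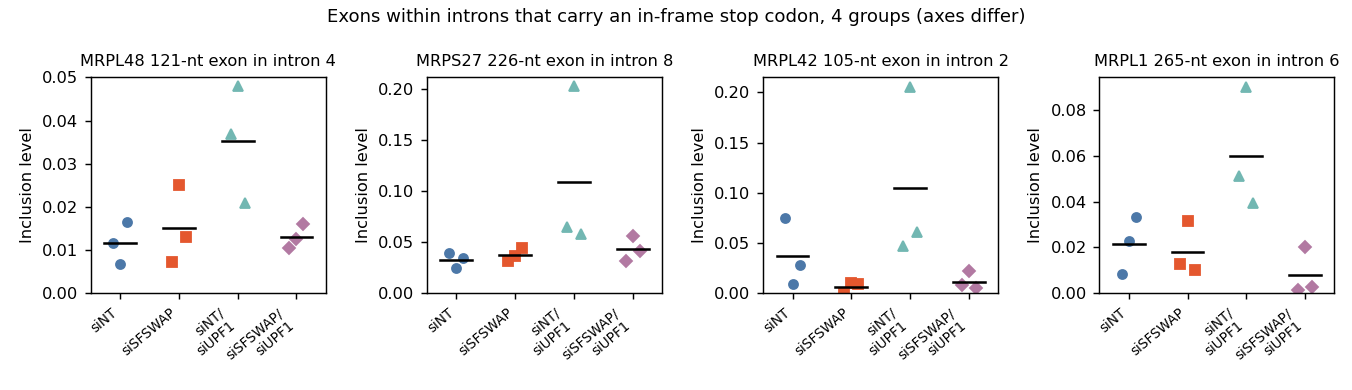
Inclusion level (linear axes that differ between panels) of the 4 stop-carrying intronic exons called in UPF1-depleted cells, in all 12 libraries; points are single libraries and bars group means. At each exon the siNT/siUPF1 group has the highest mean, with means of 0.0352 for MRPL48, 0.109 for MRPS27, 0.105 for MRPL42 and 0.0602 for MRPL1.

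Without UPF1 depletion none of these exons was called. In siNT and siSFSWAP the MRPL1 exon was at 0.0215 ± 0.0125 and 0.0182 ± 0.0117 (SD, n = 3), the MRPL48 exon at 0.0116 ± 0.00487 and 0.0151 ± 0.00914, the MRPS27 exon at 0.0329 ± 0.0073 and 0.0376 ± 0.00646, and the MRPL42 exon at 0.0374 ± 0.0337 and 0.00639 ± 0.00555 (adjusted p = 0.233). The difference between backgrounds did not pass the adjusted threshold for MRPL48 (-1.79 ± 0.54, adjusted p = 0.415), MRPL1 (-2.71 ± 0.96, adjusted p = 0.999) or MRPS27 (-1.63 ± 0.60, adjusted p = 0.999). Of all 80 intronic exons tested in UPF1-depleted cells, 64 carried an in-frame stop, 42 of which had a lower mean after SFSWAP knockdown and 22 a higher one. An exon rare in 1 group could be tested through the reads of the other. No share over all genes was computed, and no test of this class was made.

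The comparison of siNT/siUPF1 with siNT asks which exons UPF1 depletion reveals. It sets libraries from separately made tables side by side, so that anything else that differed between the 2 sets of libraries cannot be told apart from UPF1 depletion, and it shares its siNT libraries with the first comparison and its siNT/siUPF1 libraries with the second. Of 172 events tested, 2 were called, both higher (1.16%, against 1.42% of all 28261 events), and the median log2 odds ratio was 0.334 against 0.205 over all events. They were the stop-carrying exons of MRPL48 (log2 odds ratio 1.61 ± 0.38, adjusted p = 0.00488) and MRPS27 (1.84 ± 0.47, adjusted p = 0.0127), whose siNT levels are given above. Their rise here and their fall in the second comparison rest on the same siNT/siUPF1 libraries. Without the second siNT/siUPF1 library neither was called, and limma called 0 (15 at an unadjusted p under 0.05). In the quasi-binomial test 25 of the 172 had an unadjusted p under 0.05, against 3243 of all 28261.

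Other stop-carrying exons had higher mean levels in siNT/siUPF1 without passing the threshold. A 125-nt exon in MRPL22 intron 5 had 1, 2 and 2 inclusion reads with UPF1 present and 16, 13 and 12 after UPF1 depletion (adjusted p = 0.0545), and 0, 1 and 8 in siSFSWAP/siUPF1. A 140-nt exon in MRPL20 intron 3 had levels of 0.0207, 0.0216 and 0.0421 in siNT, and of 0.0501, 0.0834 and 0.0386 in siNT/siUPF1 (adjusted p = 0.0638), and a 448-nt form of the MRPS27 exon had an adjusted p of 0.108. Of the 54 intronic exons tested, 44 had a higher mean in siNT/siUPF1, among them 35 of the 44 with an in-frame stop, while of the 53 MANE exons 24 were higher and 29 lower. These counts describe the members, and no test of the classes was made. Among MANE exons, MRPL53 exon 2 was at 0.821 ± 0.06 in siNT and 0.944 ± 0.0224 in siNT/siUPF1 (adjusted p = 0.0813). No retained intron was called (0 of 11 and 0 by limma, against 0.0659% of all introns). An unadjusted p under 0.05 was held by 2 of the 11 and by 307 of all 3034 introns. MRPS21 intron 1 was retained at 0.420, 0.389 and 0.418 with UPF1 present and 0.505, 0.526 and 0.463 after its depletion (adjusted p = 0.417), and a 194-bp MRPL11 intron was at 0.608 ± 0.114 and 0.294 ± 0.0954 (adjusted p = 0.458).

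Reads at the skipped exon events of these genes were summed as a rough measure of how much of their RNA each library held. The sum was 4546, 4177 and 4453 RPM in siNT and 4014, 3764 and 3694 in siSFSWAP, with means of 4392 ± 192 and 3824 ± 168 (SD, n = 3). Every siSFSWAP library was below every siNT library, a difference of -12.9% with p = 0.1 by a two-sided exact permutation test, the smallest that 3 against 3 can give. With UPF1 depletion the sums were 4379, 4320 and 4059 against 4111, 3793 and 3908 (-7.42%, exact permutation p = 0.2), and these groups overlapped. UPF1 depletion alone, at shared events, gave 5037, 4672 and 4985 against 4852, 4808 and 4513 (-3.54%, exact permutation p = 0.4). The sums move with which events are listed and with the inclusion of the exons themselves, and less RNA per cell cannot be told apart from fewer cells that express it.

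Gene by gene, with a mean of at least 100 reads, 46 of 63 genes had a lower mean in siSFSWAP, against 3825 of all 8172 genes. All 3 siSFSWAP libraries were below all siNT libraries in 23 genes, against 15.1% of all 8172 genes, and above them in 2, MRPS22 and MRPL38, against 18.1% of all genes. The median log2 fold was -0.152 over the 63 genes and 0.0287 over all. With UPF1 depletion 12 of 59 genes were lower without overlap (14.9% of all genes) and 3, MRPL15, MRPL35 and MRPS22, were higher (6.28% of all genes), with medians of -0.106 and -0.0652. MRPL52, whose intronic exon fell, went from 53.7, 36.8 and 38.5 RPM to 35.6, 22.1 and 20.3 (0.605-fold), and MRPL21 (0.641-fold), MRPL46 (0.660-fold) and MRPL33 (0.697-fold) followed. In UPF1-depleted cells the lowest ratios were those of MRPL23 (56.7, 44.8 and 61.5 against 25.4, 21.4 and 32.6 RPM, 0.488-fold), MRPL21 (0.693-fold) and MRPL52 (0.696-fold). Without UPF1 depletion MRPL23 had 4.08 RPM in the third siNT library and 5.20 in the first siSFSWAP library, against 13.6 to 19.2 in the others.

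**Figure D5:**
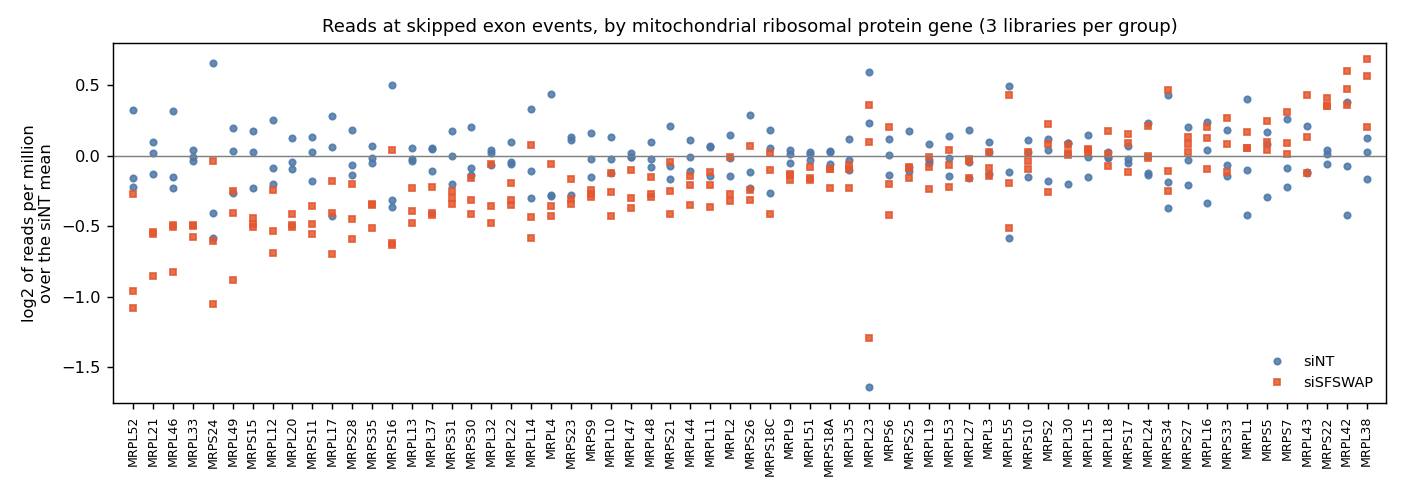
RPM at skipped exon events of each MRPL and MRPS gene in the 3 siNT (circles) and 3 siSFSWAP (squares) libraries, as log2 over the siNT mean of the gene; genes are ordered by their mean change. In 23 of the 63 genes every siSFSWAP library lies below every siNT library, and in 2, MRPS22 and MRPL38, every one lies above.

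Other genes of mitochondrial translation, a list that includes translation factors and assembly factors, give the setting for these numbers. Without UPF1 depletion 16 of their 166 skipped exon events were called (9.64%, against 11.0% of all events). These were 3 higher and 13 lower (7.21% and 3.84% of all events), in MTRF1L, GTPBP10, DAP3, TUFM, LRPPRC and PTCD3. With UPF1 depletion 16 of 164 were called (9.76%, against 7.25% of all events). These were 5 higher and 11 lower (3.91% and 3.34% of all events), in GFM2, DAP3, TUFM, ERAL1, LRPPRC and PTCD3. The MTRF1L calls, and several of LRPPRC and ERAL1, were forms set between the same neighbours. Such forms share skipping reads and are no separate evidence, so these counts by direction are not counts of exons. The MTRF1L log2 odds ratios had SEs of 3.37 to 3.42. DAP3 and PTCD3 encode small-subunit proteins whose symbols do not follow the MRP form, and TUFM encodes the mitochondrial elongation factor Tu. Among cytosolic ribosomal protein genes 134 of 588 events were called without UPF1 depletion (22.8%) and 68 of 420 with it (16.2%), against 11.2% and 9.43% for the mitochondrial ones. Groups did not overlap at 29.8% and 26.9% of the cytosolic events tested, near the 30.2% and 25.9% of the mitochondrial ones. Of the cytosolic calls, 99 of 134 and 44 of 68 were without overlap, against 22 of 24 and 20 of 20 mitochondrial calls. No test between the lists was made.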

How the data were processed

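Polyadenylated RNA of 12 libraries was sequenced in 4 groups of 3. Per the labels and the study's methods, the authors trimmed reads with cutadapt 1.9.1, aligned them with STAR 2.7 to GRCh38.p8 and listed events with rMATS. The deposited tables give, for each event and group, 3 comma-joined counts of inclusion and of skipping reads (junction reads and reads on the event), effective lengths and an inclusion level between 0 and 1. 1 table pair (skipped exons, retained introns) holds siNT and siSFSWAP and the other holds both UPF1-depleted groups. Which side of a table is the control was taken from how the study defines its difference, and lower SFSWAP reads on the other side were seen in both. Columns with the authors' own p-values and differences were not used. 0 columns of per-sample values belonged to no sample here.

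Inclusion levels recomputed from counts and lengths matched the deposited levels within 0.001. Events that averaged 10 reads or more over the libraries and held 10 or more reads of each form in total were fitted by quasi-binomial logistic regression, with dispersions moderated by limma 3.58.1 (squeezeVar) in R 4.3.3, at least 1, an F test of the deviance, and Benjamini-Hochberg adjustment over all events of the type in that comparison. All adjusted p are from this test unless limma on log2 odds (pseudocount 0.5) is named. A log2 odds ratio is positive where inclusion is higher in the depleted group, and 0.5 was added to each sum for it. The difference between backgrounds was tested by a Wald test over 4 groups at the events of both tables, and sums of reads by exact permutation. The fit was tested on simulated data. Exon numbers and reading frames are those of MANE transcripts in GENCODE 44, in which 65 of 65 symbols matched, and sequences of a few exons and introns were read from GRCh38, with 2 more not reported here. A read can count for several overlapping events. PCR reads are not independent molecules.

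Named events were, in each SFSWAP comparison, up to 8 called exons in each direction with the largest difference in inclusion, an average of 20 reads or more and no overlap between groups, the called introns, and the 6 events of lowest p in the UPF1 and background comparisons. Members and lists were chosen with earlier results of these data known. Libraries were left out in turn, and filters, dispersions and limma were tried as alternatives.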

Additional observations from a re-analysis of the deposited data

How the results depend on the processing

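How the spread between libraries was modelled moved the counts most. limma on the log2 odds called 10 skipped exon events in siSFSWAP against siNT (24 by the quasi-binomial test), 0 in UPF1-depleted cells (20), 0 for UPF1 depletion alone (2), and 0 retained introns in siSFSWAP against siNT (2). With a dispersion of its own for each event, 0 were called in each of these 4. A difference in inclusion of at least 0.1, asked in addition, left 9 skipped exon events in UPF1-depleted cells and 0 for UPF1 depletion alone. For UPF1 depletion alone 7 were called with no minimum of either form and 6 with robust moderation. When each library was left out in turn, the skipped exon calls ranged from 16 to 24 in siSFSWAP against siNT, from 9 to 27 in UPF1-depleted cells (9 without the second siNT/siUPF1 library) and from 0 to 4 for UPF1 depletion alone (0 without the same library), and retained introns in UPF1-depleted cells from 0 to 1. Of the 18 named events of siSFSWAP against siNT, 5 passed by limma and 15 with the difference of 0.1, and of the 14 in UPF1-depleted cells 0 and 8. The summed RPM differed by -15.1 to -11.4%, -9.48 to -5.73% and -5.72 to -1.39% in the 3 comparisons with a library left out. No result changed direction under the alternatives run. A higher minimum of reads, 1 event per exon or intron, and all alternatives for the difference between backgrounds left the counts within 1.5 times. edgeR on counts of either form was not run. No paired analysis was possible because the labels number the replicates but the tables do not say which of the 3 joined values belongs to which number. Few skipping reads limit exons near full inclusion, such as MRPL17 exon 2 and MRPL38 exon 6, and few inclusion reads limit the intronic exons.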

Other observations

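MRPS25, a small-subunit protein gene, gave the 3 skipped exon events that limma on log2 odds called and the quasi-binomial test did not, chosen here after their values were seen. Exon 3 (chr3:15053380-15053467) was skipped by 0 reads in each siNT library and by 3, 3 and 5 in siSFSWAP, beside 139 to 167 and 127 to 141 inclusion reads (adjusted p = 0.0335 by limma and 0.0853 by the quasi-binomial test). Exon 2 (chr3:15059369-15059475) was likewise skipped by 0 reads in each siNT library and by 3, 3 and 5 in siSFSWAP (adjusted p = 0.0419 and 0.0935). Its skipping reads equalled those of exon 3 in all 12 libraries, so it is not counted as separate evidence. The third event, a longer form overlapping exon 2, had the same skipping reads in siNT and siSFSWAP too. In UPF1-depleted cells the skipping reads of exon 3 were 3, 0 and 1 in siNT/siUPF1 and 1, 2 and 5 in siSFSWAP/siUPF1, and the groups overlapped.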
